A study of Mus musculus with 2 samples.

Results

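The genes that are used to recognize Lewis lung carcinoma (LLC) cells, Krt7, Krt8, Krt18, Krt19, Rhox5, Wfdc2, Hmga2, Cav1, Igfbp4 and Vim, were followed through the cells sorted as neutrophils from LLC tumors. The genes were chosen with earlier results of these data known and were found in the matrix by gene symbol. They make up 10 of its 31053 genes. LLC is a mouse line of lung carcinoma that was inoculated under the skin of C57BL/6 mice aged 8 to 12 weeks, either Smad3-WT (Smad3+/+) or Smad3-KO (Smad3-/-). Cells positive for CD11b and Ly6G were sorted from the digested tumors as tumor-associated neutrophils (TANs), and 1 library per genotype was made with a 5′ kit. The implanted line was the same in both hosts, so the Smad3 genotype is that of the host cells and not that of the carcinoma cells. Each genotype has 1 library of pooled tumors, so the libraries carry no replicate error and no p-value is given. The intervals in the text are 95% intervals for counting error only.

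Keratins 7, 8, 18 and 19 are intermediate filament proteins of simple epithelia, in which a type II keratin (Krt7, Krt8) pairs with a type I keratin (Krt18, Krt19). Vimentin (Vim) is the intermediate filament protein of mesenchymal cells and also of many leukocytes, and caveolin 1 (Cav1) coats the membrane pits called caveolae. Rhox5 is a homeobox gene of the reproductive tract that is switched on in many mouse tumor lines, Hmga2 is a chromatin protein of embryonic and tumor cells, Wfdc2 is a secreted protein of epithelia, and Igfbp4 binds insulin-like growth factors outside the cell.

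In the GRCm38 annotation, Krt7 (chr15:101411043-101430313), Krt8 (chr15:101996698-102004482) and Krt18 (chr15:102028180-102032027) lie on chromosome 15, with Krt8 on the minus strand and Krt18 on the plus strand 23697 bases away, so the pair is transcribed away from each other. Krt19 (chr11:100140810-100148665) and Igfbp4 (chr11:99041244-99054392) lie on chromosome 11, Vim (chr2:13573927-13582826) and Wfdc2 (chr2:164562413-164568510) on chromosome 2, Cav1 (chr6:17306335-17341452) on chromosome 6, Hmga2 (chr10:120361275-120476469) on chromosome 10 and Rhox5 (chrX:37804842-37808876) on the X chromosome. RefSeq windows of 250 bases upstream of a gene start (GRCm38) were at hand for 9 of the 10 members. The windows of the pair of keratin genes that appear together in the carcinoma cells, and of Hmga2 and Cav1, are printed 5′ to 3′ up to the outermost annotated start, with the TATA box letters TATAAA, the GC box letters GGGCGG and the AP-1 letters TGANTCA in capitals on either strand.
Krt8, chr15:102004483-102004592, minus strand: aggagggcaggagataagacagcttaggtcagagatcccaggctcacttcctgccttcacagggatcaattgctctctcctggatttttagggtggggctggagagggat
Krt18, chr15:102027966-102028179, plus strand: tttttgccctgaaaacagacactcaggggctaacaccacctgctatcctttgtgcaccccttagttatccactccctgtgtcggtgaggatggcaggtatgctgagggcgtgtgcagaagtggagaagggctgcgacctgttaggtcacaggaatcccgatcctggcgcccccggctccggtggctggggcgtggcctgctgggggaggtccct
Hmga2, chr10:120476470-120476719, minus strand: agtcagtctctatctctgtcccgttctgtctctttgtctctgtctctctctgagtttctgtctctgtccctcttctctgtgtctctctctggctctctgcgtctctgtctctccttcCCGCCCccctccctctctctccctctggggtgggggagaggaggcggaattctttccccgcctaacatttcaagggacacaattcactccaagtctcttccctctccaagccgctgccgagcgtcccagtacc
Cav1, chr6:17306085-17306334, plus strand: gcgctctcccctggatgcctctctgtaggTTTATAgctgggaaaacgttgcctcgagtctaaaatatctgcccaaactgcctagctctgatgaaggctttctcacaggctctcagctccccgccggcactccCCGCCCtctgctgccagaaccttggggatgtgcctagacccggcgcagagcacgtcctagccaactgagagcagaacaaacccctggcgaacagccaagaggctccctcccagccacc
The capitals in the Hmga2 window mark 1 GC box, and those in the Cav1 window mark 1 TATA box run and 1 GC box. Each is read on the strand opposite to the printed one, the plus strand for Hmga2 and the minus strand for Cav1. No letters of the 3 motifs were found in the printed windows of Krt8 and Krt18. Over the 250 bases, GC box letters were present in Krt7 (4 matches), Wfdc2, Hmga2 and Cav1 (1 match each), against 32.7% of the 32851 windows of the table. TATA box letters were present in Cav1, Igfbp4 and Vim, against 12.4% of all windows, and AP-1 letters were in no member, against 6.75% of all windows. A match describes the letters and not binding.

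Unique molecular identifiers (UMIs, each a counted transcript) came to 23951400 over 4116 barcodes in the Smad3-WT library and to 4214290 over 2514 barcodes in the Smad3-KO library. Barcodes with at least 200 genes, more than 500 UMIs and under 10% mitochondrial UMIs were kept as cells, with no upper limit on UMIs, which left 3902 Smad3-WT and 2433 Smad3-KO cells. Smad3 itself had 299 UMIs in kept Smad3-WT cells and 321 in kept Smad3-KO cells, 12.7 and 77.4 CPM (UMIs of a gene per 1e+06 UMIs of the cells), but tags of a 5′ kit lie outside the deleted exon and check nothing about it. Cells were clustered without the 10 members, and 9 clusters were named by other markers. The cluster that carried 5 of 24 carcinoma markers outside the 10 genes, among them Tm4sf1, Met, Lama5 and Prl2c2, was called carcinoma-like. It held 770 Smad3-WT cells, 19.7% (18.5 to 21.0) of that library, with a median of 19461.5 UMIs per cell, against 741 in the 1838 neutrophil-like cells. It also held 42 Smad3-KO barcodes with a median of 647.5 UMIs, which are described apart.

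A total of 73 cell barcodes were present in both libraries, and this touches each statement on the Smad3-KO library. In 46 of them, the Smad3-WT barcode was a carcinoma-like cell of 35987 to 71282 UMIs, and the Smad3-KO barcode held 437 to 831 UMIs. The Smad3-KO UMIs of these pairs were 0.957% to 1.22% of the Smad3-WT UMIs, with a median of 1.13%. The Smad3-WT carcinoma-like cells with at least 35987 UMIs numbered 73, so these pairs cover most of the deepest carcinoma-like cells. In the other direction, 13 barcodes with 10529 to 18606 Smad3-KO UMIs had 532 to 904 Smad3-WT UMIs, 4.30% to 5.36% of them, and they were 13 of the 17 kept Smad3-KO cells over 10000 UMIs. The other 14 pairs followed neither ratio. How the same barcodes came to be in both libraries was not tested.

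**Figure D1:**
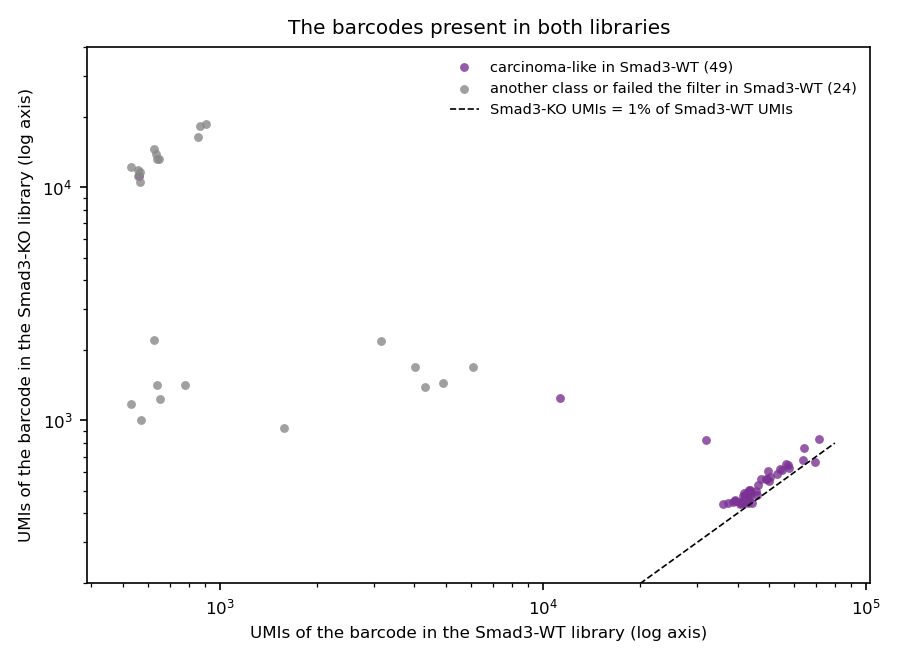
UMIs of the 73 shared barcodes in the Smad3-WT library (x axis, log) and in the Smad3-KO library (y axis, log), with each point a barcode, purple where the Smad3-WT barcode was carcinoma-like, and a dashed line where the Smad3-KO barcode has 1% of the UMIs. Of the 49 purple points, 46 lie along the line between 0.957% and 1.22%.

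Of the 4 keratins, the carcinoma-like cells of these tumors carried Krt8 and Krt18, and hardly any Krt7 or Krt19. Krt8 had 5691 UMIs in the 770 Smad3-WT carcinoma-like cells, 356 CPM (347 to 365), and was detected in 649 of them, 84.3% (81.5 to 86.8), against 0.707% of neutrophil-like cells. Krt18, the partner of Krt8 in filaments, had 997 UMIs, 62.3 CPM (58.5 to 66.3), in 44.5% of these cells. Krt7 had 18 UMIs in 16 cells, 1.13 CPM (0.667 to 1.78), and Krt19 had 2 UMIs in 2 cells. The level of Krt7 was no higher in carcinoma-like cells than in all other Smad3-WT cells (ratio 1.21, 0.484 to 3.44), so Krt7 and Krt19 did not mark these cells.

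The other genes of the lists were set against all other Smad3-WT cells and are called higher or lower where the interval of the ratio lies above or below 1. Of 12433 genes with at least 20 Smad3-WT UMIs, 43.6% were higher and 38.1% were lower in carcinoma-like cells by the same rule, so a call alone sets no gene apart. Of 45 further keratin genes, 3 had at least 20 UMIs in the Smad3-WT library (Krt10, Krt80 and Krt83), and none of them was higher in carcinoma-like cells. Epcam, an adhesion protein of epithelial cells, had 0 UMIs in the 770 cells. A floor of 3 cells, used for a count of 0, would be 0.390% of them. Cdh1 (E-cadherin) had 5 UMIs. Of 15 epithelial genes, 4 had at least 20 UMIs. Ocln (occludin), a protein of tight junctions, was higher in carcinoma-like cells, with 140 UMIs against 4 in all others (ratio 16.5, 6.31 to 61.5), and Cdh1 and Jup (plakoglobin), proteins of cell junctions, were lower, with ratios of 0.0874 and 0.206. Of 10 genes of lung lineages, 3 had at least 20 UMIs, Hopx, Ager and Napsa, and all were lower in carcinoma-like cells, with ratios of 0.402, 0.210 and 0.0429.

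Rhox5, Wfdc2, Hmga2 and Cav1 were each detected in most of the cells. Wfdc2 reached 386 CPM (376 to 396) in 90.3% of Smad3-WT carcinoma-like cells, Rhox5 312 CPM (303 to 320) in 87.9%, and Hmga2 248 CPM (240 to 256) in 79.6%. Cav1 reached 271 CPM (263 to 279) in 90.1%. Igfbp4 was at 1086 CPM (1070 to 1102) in 96.9% and Vim at 4163 CPM (4131 to 4195) in 98.6% of the same cells. These are levels of 5′ tags per gene and each gene is compared only with itself across cells.

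Relatives of Rhox5 on the X chromosome moved with it. Of 33 other Rhox genes, 3 had at least 20 UMIs, Rhox2d, Rhox2g and Rhox2h, and each was higher in carcinoma-like cells than in all other Smad3-WT cells, with ratios of 19.9 (13.3 to 31.2), 20.9 (12.6 to 37.5) and 15.9 (10.9 to 24.3). The Rhox2 copies are near-identical, and how their reads were divided is uncertain. Wfdc2 stood alone in its family: of 18 other genes with whey acidic protein domains, Slpi, Wfdc17 and Wfdc21 had at least 20 UMIs, and all 3 were lower in carcinoma-like cells, with ratios of 0.0485, 0.0685 and 0.0442. Slpi encodes a protease inhibitor of neutrophils.

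Beside Cav1, several genes of the same membrane pits were detected in the Smad3-WT carcinoma-like class. The class also held UMIs of 6 of 6 endothelial markers, 80.5 CPM, against 25 CPM in T or NK-like cells, the next highest Smad3-WT class. The part of endothelial cells in the levels of caveolar genes was not tested. Of 8 caveolar genes, 6 had at least 20 UMIs, and Cav2, Cavin1, Cavin2, Cavin3 and Ehd2 were higher in carcinoma-like than in other Smad3-WT cells, with ratios between 4.28 (Cavin1) and 13.7 (Cavin2), while Pacsin2 was lower (0.591, 0.514 to 0.679). Of 6 oncofetal genes listed beside Hmga2, 3 had at least 20 UMIs, and Hmga1, Igf2bp2 and Igf2bp3, genes of chromatin and of RNA binding in embryonic tissue, were higher, at ratios of 4.84, 5.15 and 4.15. Of 13 genes of the insulin-like growth factor system, 7 had at least 20 UMIs, and Igfbp7 was higher (2.48, 2.15 to 2.87), whereas Igfbp5 (0.00627), Igf1 (0.0577), Igfbp3 (0.236), Igfbp6 (0.348) and Igf1r (0.399) were lower. Igf2r, a receptor that clears Igf2, was also higher (1.77, 1.55 to 2.04).

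Alongside Vim, the intermediate filament genes Nes (17.7, 11.5 to 28.8), Prph (23.4, 6.30 to 196), Des (17.9, 3.03 to 727) and Lmna (2.19, 2.04 to 2.34), and the filament linker Plec (1.17, 1.08 to 1.27), were higher in carcinoma-like cells and Lmnb1 was lower (0.310). Of 11 mesenchymal genes, 9 had at least 20 UMIs. Twist1 and Twist2, regulators of the mesenchymal state, were detected in 51.0% and 60.9% of carcinoma-like cells, at 7.84 (5.94 to 10.6) and 13.7 (9.70 to 20.1) times the level of other cells, and Snai2 at 8.97 times (4.0 to 25). S100a4 (1.86), Snai1 (1.60) and Zeb1 (1.37) were higher by less. Fn1 (0.213), Zeb2 (0.118) and Acta2 (0.0593), of the same mesenchymal list, were lower, so the list did not move as 1. The carcinoma-like class thus carried Krt8 and Krt18 beside Vim, Twist1 and Twist2, with Epcam at 0 UMIs.

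Against neutrophil-like and macrophage-like cells, 8 members had enough UMIs to be read. Vim is also a gene of leukocytes and was detected in 95.3% of Smad3-WT macrophage-like cells, so these cells do not lack it. Among 8292 genes with at least 200 Smad3-WT UMIs, 1008 genes, 12.2%, were at least 10-fold higher in carcinoma-like than in neutrophil-like cells, and so were the 8 members that reached 200 UMIs. Krt7 and Krt19 did not reach that number. Against macrophage-like cells the share was 3.56% (295 genes), and 6 of the 8 members passed, all but Vim and Igfbp4. The members were chosen as markers of these cells and reached 200 UMIs mainly through them, so the counts are descriptions and support nothing.

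In the 1838 Smad3-WT neutrophil-like cells, Krt8 had 19 UMIs in 13 cells, 0.0317 (0.0191 to 0.0496) of its level in carcinoma-like cells. Rhox5 had 25 UMIs in 12 cells (0.0476, 0.0308 to 0.0704), and Wfdc2 had 19 in 13 cells (0.0292, 0.0176 to 0.0457). Hmga2 (0.0503), Cav1 (0.0350), Krt18 (0.0381) and Igfbp4 (0.0317) had like quotients, with overlapping intervals, and Vim stood higher at 0.0836 (0.0769 to 0.0907). Without the 51 neutrophil-like cells of more than 3 times the median UMIs of the class, the quotients were 0.0173 for Rhox5, 0.0140 for Wfdc2, 0.0191 for Hmga2, 0.0174 for Cav1, 0.0193 for Igfbp4 and 0.0558 for Vim. With each cell thinned to 500 UMIs, Krt8 was detected in 15.3% of carcinoma-like and 0.381% of neutrophil-like cells, and Wfdc2 in 16.9% and 0.381%. For Krt8 and Wfdc2, the low share in neutrophil-like cells is the background against which detection is read.

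The 6 members Krt8, Krt18, Rhox5, Wfdc2, Hmga2 and Cav1, set apart after their values were seen, were each detected in under 5% of macrophage-like and neutrophil-like cells. Within the Smad3-WT library, the share of each gene in neutrophil-like cells had a wide interval that held its share in carcinoma-like cells. These intervals take UMIs as independent, though 3 cells held 52 of the 104, so they do not show that the shares are alike. Krt8 made up 18.3% (11.4 to 27.1) of the 104 UMIs of the 6 genes in neutrophil-like cells and 21.8% of the 26148 in carcinoma-like cells. Wfdc2 made up 18.3% (11.4 to 27.1) and 23.6%, and Cav1 15.4% (9.06 to 23.8) and 16.6%. In macrophage-like cells, Hmga2 made up 23.0% (19.2 to 27.2) of 443 UMIs, against 15.2% in carcinoma-like cells, and Krt18 made up 1.81% (0.783 to 3.53) against 3.81%. In macrophage-like cells with under 3 of the 6 genes, Hmga2 made up 14.4% and Krt18 2.7%. There too UMIs are not independent, since 22 cells held 332 of the 443, so the intervals set no share apart.

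Few cells held much of this background. Of 1838 neutrophil-like cells, 1788 had no UMI of the 6 genes, and 3 cells with at least 3 of the genes held 52 of the 104 UMIs. Of 1152 macrophage-like cells, 22 cells (1.91%) with a median of 15506 UMIs, against 3520 for the class, held 332 of the 443 UMIs, 74.9%. In the other 1130 macrophage-like cells the 6 genes together came to 23.4 CPM, against 86.5 CPM in the whole class and 1635 CPM in carcinoma-like cells. Such cells were not removed as doublets, and whether they are 2 cells in a droplet was not tested. Another seed of the clustering put 118 of the 770 carcinoma-like cells, with 630 keratin UMIs, into the macrophage-like class and raised the quotient of the 4 keratins between these classes from 0.0564 to 0.237.

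**Figure D2:**
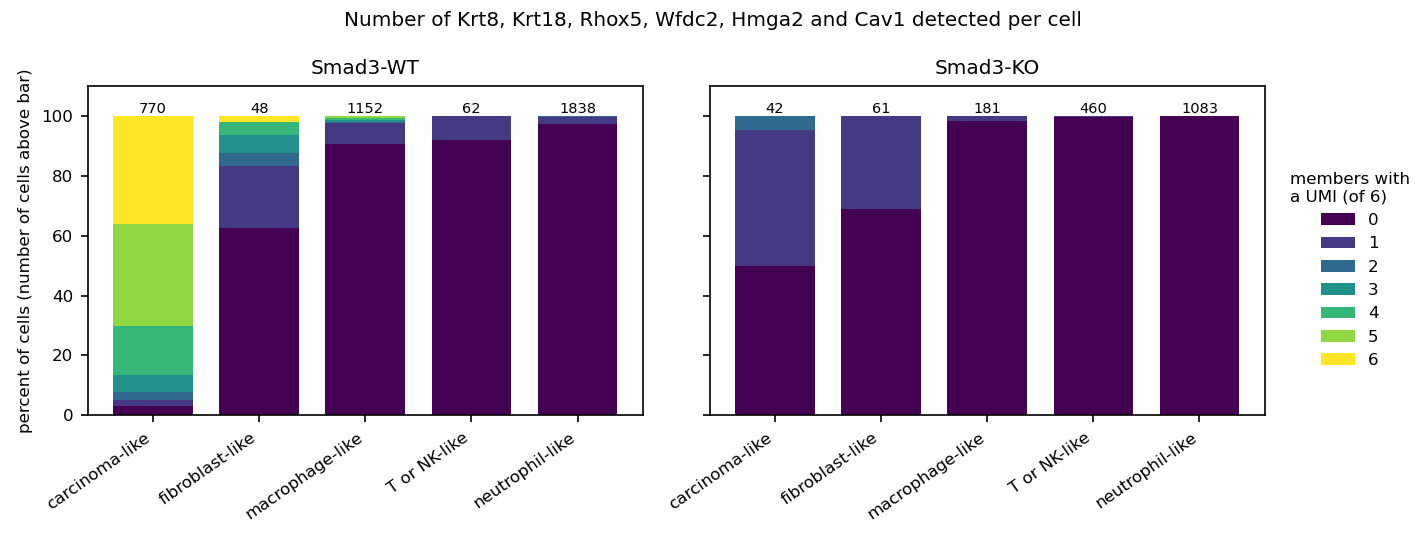
Percent of cells (y axis) with 0 to 6 of the genes Krt8, Krt18, Rhox5, Wfdc2, Hmga2 and Cav1 detected, by cell class (x axis) and library, with the number of cells above each bar. In Smad3-WT carcinoma-like cells 278 of 770 have all 6, whereas no Smad3-KO cell has more than 2.

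Igfbp4, Cav1 and Vim were shared with other cells of the tumor. In the 48 Smad3-WT fibroblast-like cells, Igfbp4 was at 681 CPM, 0.627 (0.549 to 0.713) of its level in carcinoma-like cells, and Cav1 was at 97.7 CPM (0.360, 0.249 to 0.504). Krt8 (0.129), Rhox5 (0.138) and Hmga2 (0.186) were also above their neutrophil-like quotients there, and 6 of the 48 cells carried at least 3 of the 6 genes, with a median of 11054.5 UMIs. Vim was at 2792 CPM in macrophage-like cells, 0.671 (0.659 to 0.683) of the carcinoma-like level, and at 1859 CPM in dendritic-like cells. Igfbp4 was at 151 CPM in macrophage-like cells, 0.139 (0.129 to 0.149). Of all kept Smad3-WT UMIs, carcinoma-like cells held 98.6% for Krt18, 98.1% for Wfdc2, 97.9% for Rhox5, 97.5% for Krt8 and 97.2% for Cav1. They held 96.6% for Hmga2, 94.1% for Igfbp4 and 80.4% for Vim. Over all genes, carcinoma-like cells held 15996967 of the 23551039 kept Smad3-WT UMIs, and the shares of the members are read against that.

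In the Smad3-KO library Krt8, Krt18, Rhox5, Wfdc2 and Hmga2 were nearly absent. Over all kept cells of the 2 libraries, 2.16% of the 8292 genes (179) were at least 10-fold lower in the Smad3-KO library, and 6 of the 8 members were among them, Krt8, Krt18, Rhox5, Wfdc2, Hmga2 and Cav1. They entered that count through their Smad3-WT UMIs alone, so it describes them and tests nothing. Krt8 had 5837 UMIs in the Smad3-WT and 4 in the Smad3-KO cells (ratio 0.00389, 0.00106 to 0.00997). Rhox5 had 5090 and 1 (0.00112, 2.82e-05 to 0.00622), Wfdc2 had 6293 and 9 (0.00812, 0.00371 to 0.0154), Hmga2 had 4104 and 5 (0.00692, 0.00225 to 0.0162) and Krt18 had 1011 and 1 (0.00562, 0.000142 to 0.0314). Cav1 had 4461 and 71 (0.0904, 0.0705 to 0.114), Igfbp4 18452 and 641 (0.197, 0.182 to 0.213), and Vim 82812 and 3024 (0.207, 0.20 to 0.215). As a mean over cells, in which each barcode counts alike, the ratio was 0.041 for Krt8, 0.0112 for Rhox5, 0.0602 for Wfdc2, 0.0358 for Hmga2, 0.0041 for Krt18, 0.121 for Cav1, 0.493 for Igfbp4 and 0.261 for Vim. Because most Smad3-WT UMIs come from carcinoma-like cells, these ratios between whole libraries measure how many such cells a library holds as well as levels within cells.

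The few Smad3-KO UMIs of Krt8, Rhox5, Wfdc2 and Hmga2 lay mostly in the shared barcodes. Counted over all barcodes, these held 8 of the 8 Krt8 UMIs, 3 of the 3 Rhox5 UMIs, 13 of the 14 Wfdc2 UMIs and 8 of the 11 Hmga2 UMIs, and 1 of the 2 of Krt18, though they held 220849 of the 4214290 UMIs of the library. In the 46 pairs described above, Krt8 had 1070 Smad3-WT and 8 Smad3-KO UMIs, so its CPM in these barcodes did not differ beyond counting error (ratio 0.670, 0.289 to 1.33), and the ratio was 1.62 (0.860 to 2.79) for Wfdc2, 1.14 (0.488 to 2.25) for Hmga2 and 1.13 (0.942 to 1.35) for Vim. Without shared barcodes, the Smad3-KO cells had 0 UMIs of Krt8 and of Rhox5. The upper limit of the ratio to the Smad3-WT cells was 0.00421 for Krt8 and 0.00464 for Rhox5. Wfdc2 then had 1 UMI (0.000974, 2.47e-05 to 0.00543) and Hmga2 had 3 (0.00468, 0.000965 to 0.0137), while Cav1 (0.0746), Igfbp4 (0.208) and Vim (0.202) hardly moved.

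At least 3 of the 6 genes named above were detected together in 742 of 3902 Smad3-WT cells, 19.0%, whatever their class. In the Smad3-KO library this held for 0 of 2433 cells, which allows up to 0.152% of cells with such detection. The highest number in any Smad3-KO cell was 2. Detection depends on depth, and 2146 of the Smad3-KO cells had under 3000 UMIs, where 5 of 39 Smad3-WT carcinoma-like cells (12.8%) had at least 3 of the genes. At 3000 to 10000 UMIs these were 62 of 81 Smad3-WT carcinoma-like cells (76.5%) and 0 of 270 Smad3-KO cells of any class. The 42 Smad3-KO barcodes of the carcinoma-like cluster differed among themselves. Of them, 19 were shared barcodes of 504 to 831 UMIs, with Wfdc2 and Krt8 among their leading genes, and these held the 4 Krt8, 1 Rhox5 and 8 Wfdc2 UMIs of the cluster in that library. The other 23 had 0 UMIs of Krt8, Krt18, Rhox5, Wfdc2 and Hmga2 but 24 of Cav1, 11 of Igfbp4 and 147 of Vim; their leading genes were Rgs5, Fabp4, Col4a1, Col4a2 and Acta2, and 6 of 6 endothelial markers were detected, with 25 UMIs in all, as were 6 of 8 fibroblast markers, with 447 UMIs. They cannot be called carcinoma cells from these genes.

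Where the 2 libraries hold the same class, the members could be set side by side. The neutrophil-like class lay in different clusters, with 1828 of its 1838 Smad3-WT cells in the largest cluster of the data and 832 of its 1083 Smad3-KO cells in a different one. In the 1083 Smad3-KO neutrophil-like cells, Krt8, Krt18, Rhox5, Wfdc2, Hmga2 and Cav1 had 0 UMIs. The upper limit of the ratio to Smad3-WT neutrophil-like cells was 0.272 for Krt8 and Wfdc2, 0.202 for Rhox5 and 0.244 for Hmga2. It was 0.329 for Cav1 and 1.92 for Krt18, so Krt18 did not differ beyond counting error. These bounds rest on few Smad3-WT cells, since 1 cell held 14 of the 25 Rhox5 UMIs and 1 cell held 12 of the 21 Hmga2 UMIs. Igfbp4 was 0.131 (0.0463 to 0.304) and Vim 0.615 (0.532 to 0.710) of the Smad3-WT level there. In fibroblast-like cells, Cav1 did not differ beyond counting error (ratio 1.15, 0.708 to 1.89), Igfbp4 was at 0.828 (0.681 to 1.01) and Vim at 0.740 (0.660 to 0.829). Without shared barcodes, the fibroblast-like ratio was 1.07 (0.873 to 1.30) for Igfbp4 and 0.684 (0.601 to 0.779) for Vim. In macrophage-like cells Vim was at 0.495 (0.461 to 0.532) and Igfbp4 at 0.420 (0.292 to 0.586). The libraries also differ in how many carcinoma-like cells they hold, and the part of this in these ratios was not tested.

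Igfbp4 ran the other way in T or NK-like cells, at 476 CPM in the 460 Smad3-KO cells and 21.5 CPM in the 62 Smad3-WT cells (ratio 22.2, 10.1 to 60.8, and 23.0, 10.5 to 63.1, without shared barcodes). It was detected in 33.9% of the Smad3-KO and 6.45% of the Smad3-WT cells. Within the Smad3-KO cells it was at 824 CPM (724 to 935) in 188 cells with a UMI of Lef1, a factor of naive T cells, and none of Nkg7, a gene of cytotoxic cells, and at 80.4 CPM (36.7 to 153) in 52 cells with Nkg7 and no Lef1. The Smad3-WT class had 4 cells of the first kind and 36 of the second, so the makeup of the class differed between libraries along with the level. Of the Smad3-KO UMIs of Igfbp4, T or NK-like cells held 57.4% and fibroblast-like cells 29.6%. Over all genes, these classes held 773461 and 336832 of the 4146792 kept Smad3-KO UMIs.

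**Figure D3:**
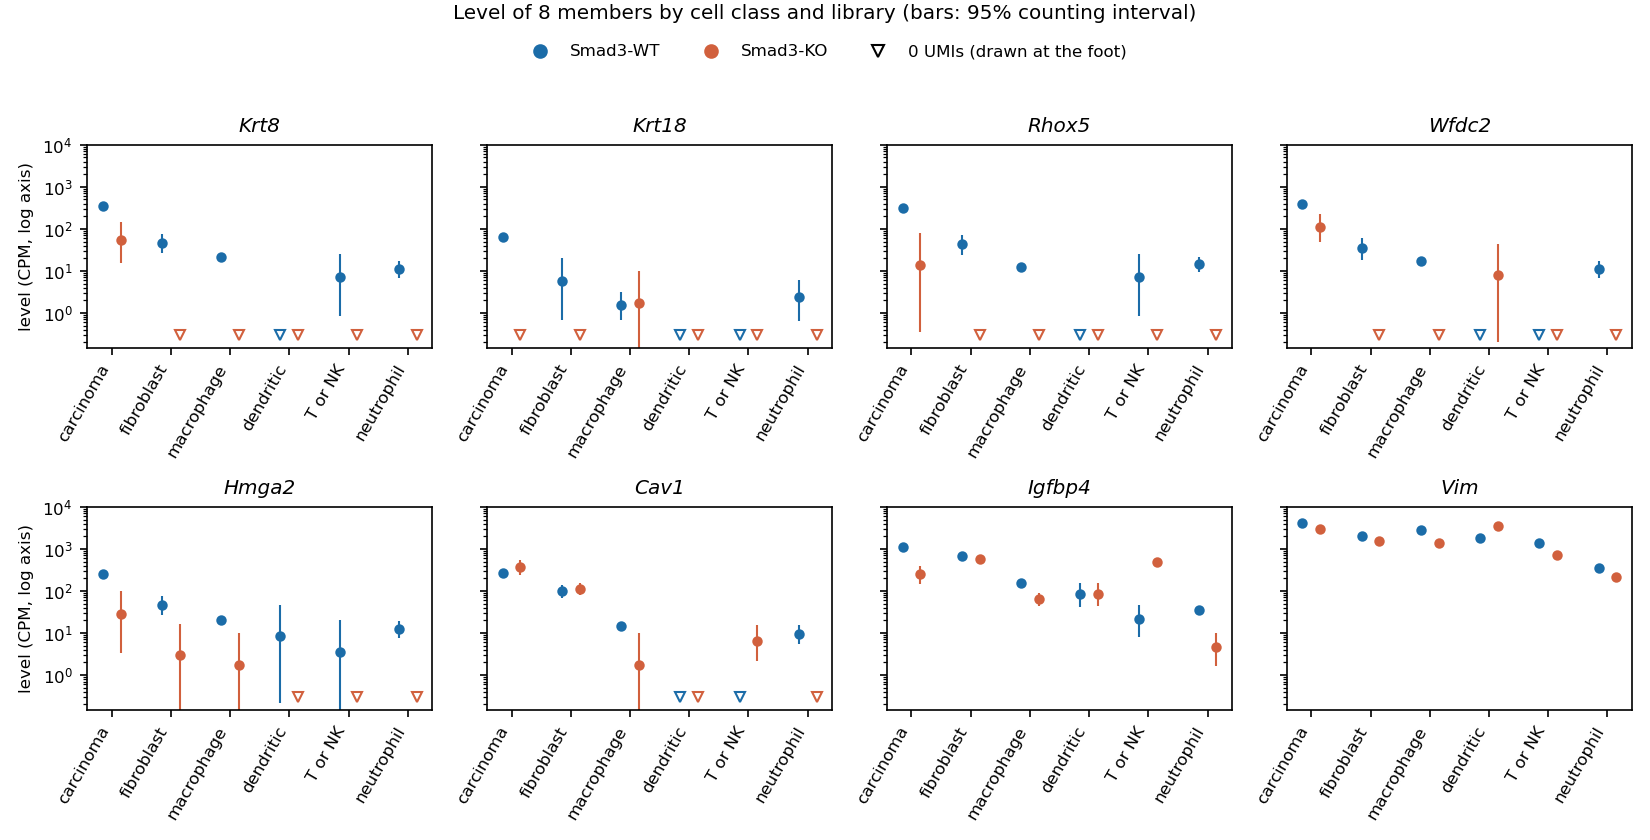
Level in CPM (y axis, log) of 8 members by cell class (x axis) in the Smad3-WT (blue) and Smad3-KO (orange) library, with 95% counting intervals and open triangles at the foot for 0 UMIs. Krt8, Krt18, Rhox5, Wfdc2 and Hmga2 are highest in Smad3-WT carcinoma-like cells, while the lowest level of Vim is 214 CPM. The orange carcinoma points are the 42 barcodes described apart.

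Among the carcinoma-like cells themselves, levels moved with the depth of a cell. Of the 770 cells, 372 had 20000 UMIs or more, the upper limit of the study, and no Smad3-KO cell did. From cells of 10000 to 20000 UMIs to those over 30000, Krt8 went from 270 CPM (255 to 287) to 420 CPM (403 to 437), Rhox5 from 273 to 369 CPM and Hmga2 from 195 to 280 CPM. Hmga2 was highest, at 379 CPM (240 to 568), in the 39 cells under 3000 UMIs, so it did not follow depth throughout. Wfdc2 went from 468 to 316 CPM and Cav1 from 357 to 192 CPM over the same cells. The upper limit removes cells of at least 20000 UMIs, which held 76.6% of the Krt8, 75% of the Hmga2, 73.3% of the Rhox5, 62.6% of the Wfdc2 and 59.1% of the Cav1 UMIs of kept Smad3-WT cells. Over all genes, carcinoma-like cells of 20000 to 30000 UMIs held 5474413 of the 23551039 kept Smad3-WT UMIs. Those from 30000 UMIs held 5656482, so the limit also takes many UMIs of genes outside the list.

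**Figure D4:**
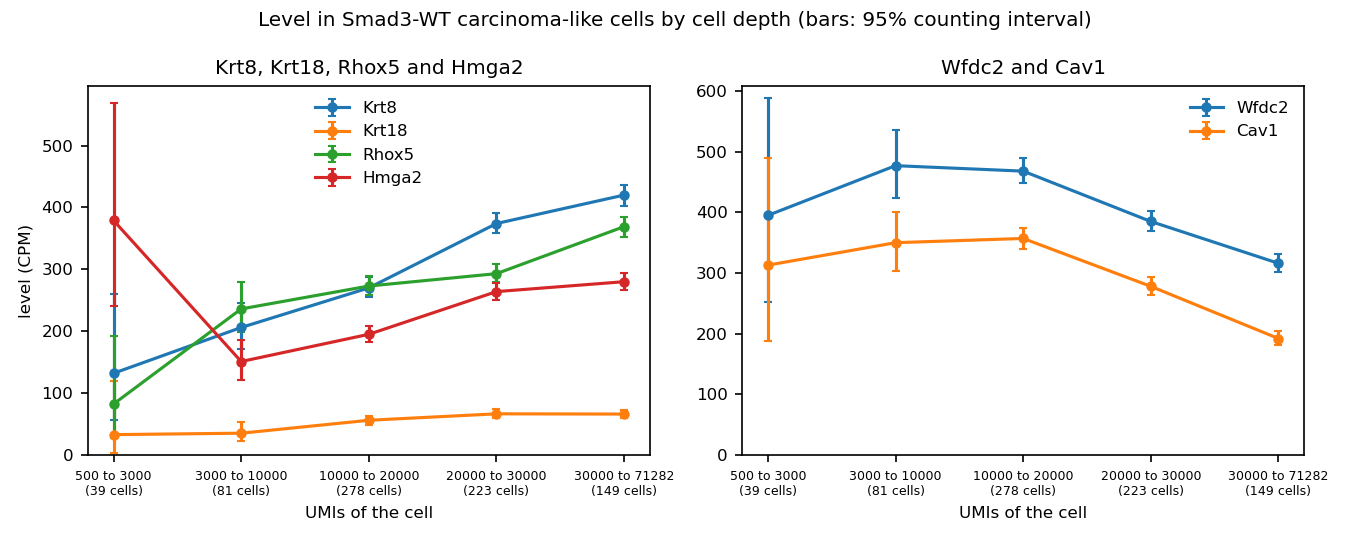
Level in CPM (y axis) in Smad3-WT carcinoma-like cells grouped by their UMIs (x axis, number of cells in brackets), with 95% counting intervals. Krt8 and Rhox5 are higher in deeper cells, and Wfdc2 and Cav1 are lower in the 2 deepest groups than in cells of 10000 to 20000 UMIs.

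Levels of some members also differed between cells with high and low levels of cell cycle genes. Among 650 carcinoma-like cells of at least 10000 UMIs, the 216 with the highest summed level of 10 cell cycle genes (1932 CPM) had a median of 25699.5 UMIs, and the 216 with the lowest (38.4 CPM) had 16728.5. Cav1 was at 211 CPM (199 to 223) in the first and 394 CPM (374 to 414) in the second, Wfdc2 at 362 and 494 CPM, and Igfbp4 at 955 and 1419 CPM. Krt8 was at 366 and 322 CPM, Rhox5 at 332 and 281 CPM, and Vim at 4276 and 4399 CPM. Cell by cell, most of these links were weak. The Spearman rho with the level of the cell cycle genes was -0.31 for Cav1, 0.15 for Rhox5 and -0.14 for Igfbp4. It was 0.08 for Krt8, -0.05 for Wfdc2 and -0.03 for Vim. Depth and cell cycle move together here and cannot be told apart.

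Levels of the members ranged widely from cell to cell. A cell holds few UMIs of most members, and counting error was not separated from this range. Over the 650 cells, Krt8 had a median of 230 CPM, with 51 cells at 0 and a highest value of 3504 CPM, and Wfdc2 a median of 293 CPM with a highest of 4908 CPM. Across cells, the Spearman rho was 0.35 for Krt8 with Krt18, 0.35 for Cav1 with Igfbp4, 0.33 for Krt8 with Vim, 0.25 for Cav1 with Wfdc2 and -0.27 for Cav1 with Hmga2. These values are descriptions over cells of 1 library whose CPM share the total of the cell, and the rho with the UMIs of a cell was -0.26 for Cav1 and 0.28 for Hmga2.

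Some cells that carry these genes also passed a filter for neutrophil markers. The study kept cells by the neutrophil markers S100a8, S100a9, Csf3r and Il1rn, by a rule that is not given in the sources used here. A rule of at least 1 UMI of any of them and under 20000 UMIs, which kept fewer Smad3-WT and more Smad3-KO cells than the study did, left 188 of the 770 Smad3-WT carcinoma-like cells, 6.48% of the 2899 Smad3-WT cells that passed it. These 188 cells held 89.9% of the Krt8, 92.8% of the Rhox5, 95.5% of the Wfdc2 and 92.4% of the Cav1 UMIs in that filtered set. They held 40.9% of the Vim UMIs. Their share of the UMIs of all genes was not computed, so these shares have no base to be read against. The 10 neutrophil markers used to name clusters, a different list without Il1rn, came to 620 CPM in carcinoma-like cells against 82523 CPM in neutrophil-like cells. Ptprc, which encodes the leukocyte surface protein CD45, came to 12.3 against 495 CPM. Of the 770 cells, 331 (43.0%) had a UMI of any of the 4 filter genes. Of the 1605 Smad3-KO cells that passed the same filter, none had a UMI of Krt8, Rhox5 or Wfdc2.

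The authors' own 13 clusters, made from all cells without the members left out, placed the genes in clusters 2 and 11. The deposited averages are multiples of what 1 UMI is worth, so the UMIs behind them could be recovered, with a largest gap from a whole number of 9.34e-09. Clusters 2 and 11 held 99.0% of all Krt8, 99.4% of Rhox5, 99.1% of Wfdc2, 98.8% of Hmga2, 98.7% of Cav1, 94.1% of Igfbp4 and 80.0% of Vim UMIs. Over all genes, cluster 2 held 8302305 and cluster 11 held 8955798 of the 28165690 UMIs, and the shares are read against that. The clusters were not alike: Krt8 had 238 CPM in the first and 431 CPM in the second (ratio 0.554, 0.524 to 0.585), and Rhox5 was at 199 and 389 CPM (0.511, 0.482 to 0.542). Wfdc2 was at 370 and 372 CPM (0.995, 0.947 to 1.05), and Cav1 was higher in cluster 2 (1.19, 1.12 to 1.26). Cluster 2 also held Col1a1 at 1245 CPM against 0.112 CPM in cluster 11, and C1qa at 170 against 13.6 CPM, so it holds transcripts of fibroblasts and macrophages beside those of carcinoma cells, and their part in the difference was not tested. Among the other 11 clusters, the highest level was 16.5 CPM for Krt8 and 37.1 CPM for Cav1, both in cluster 12, where C1qa was at 1236 CPM, and Igfbp4 reached 404 CPM in cluster 9. Vim stayed between 116 CPM (cluster 3) and 3223 CPM (cluster 5) in these clusters.

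**Figure D5:**
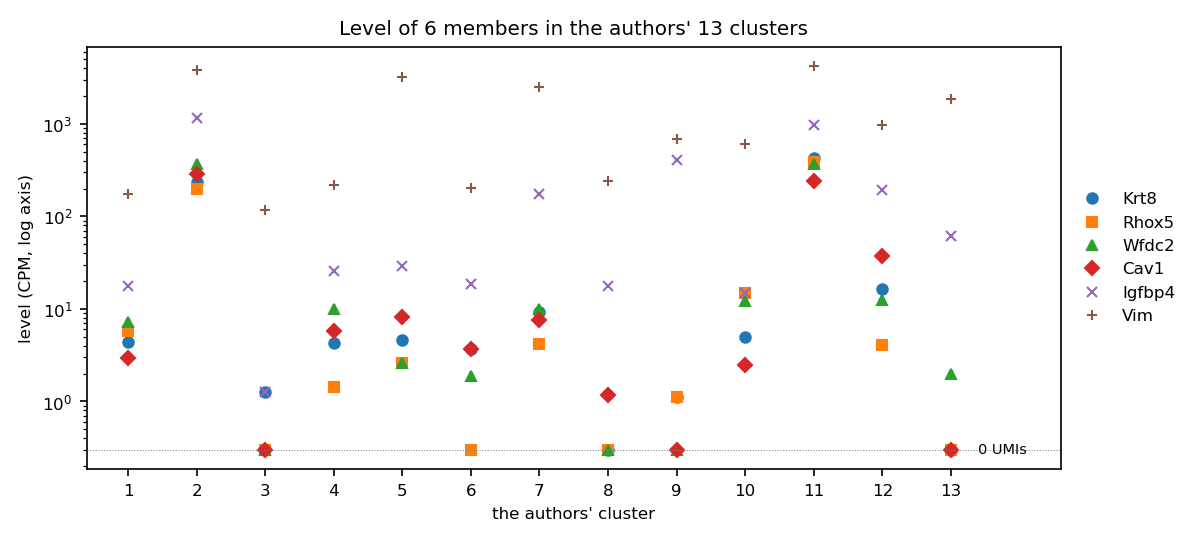
Level in CPM (y axis, log) of 6 members in the authors' 13 clusters (x axis), both libraries pooled, with 0 UMIs drawn on the dotted line. Krt8, Rhox5, Wfdc2 and Cav1 stand between 199 and 431 CPM in clusters 2 and 11, and the highest of them elsewhere is Cav1 at 37.1 CPM.

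Genes outside the 10 with the most similar pattern over 13 points (cell classes of each library with at least 20 cells) were Ptprn, Cda, Arhgef28, Gchfr, Cavin2, Mgst3, Nptxr, Map1b, Tenm4 and Cav2, with a Pearson r of 0.924 (Cav2) to 0.974 (Ptprn) to the mean pattern of the members on log2(CPM + 5). The members themselves ranged from 0.15 (Krt7) and 0.657 (Vim) to 0.949 (Hmga2). The points of a library share its depth and its background. By the ratio of carcinoma-like to all other Smad3-WT cells, Krt18 ranked 8 of 8292 genes, Wfdc2 26, Rhox5 33, Krt8 55, Cav1 70, Hmga2 112, Igfbp4 282 and Vim 2312. The members were chosen as markers of these cells with earlier results of these data known. The ranks therefore test nothing and only describe the members. Genes above most of them outside the list were S100a3 (447 UMIs in carcinoma-like and 3 in other cells), the placental prolactin relative Prl2c2 (741 and 7), Sncg (578 and 6), the imprinted gene Mest (564 and 6), Arhgdig (321 and 4), Ankrd1 (230 and 2), Gsta4 (759 and 10), Reep6 (427 and 6), Ston1 (209 and 3) and Sh3gl3 (412 and 6).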

How the data were processed

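UMI counts per gene and barcode are raw counts that the authors deposited, made with Cell Ranger from reads on mm10; the matrix header names version 3.0.2. The authors' deposited averages per library and per cluster are a score, UMIs divided by their total and multiplied by 1311. Barcodes were given to a library because the sums over them matched its deposited averages to within 3.58e-08. The authors' log2 fold changes and p-values were not used.

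The members and gene lists were chosen with earlier results of these data known. Cells were kept with at least 200 genes, more than 500 UMIs and under 10% mitochondrial UMIs. After leaving out the members, 2000 variable genes were reduced to 100 principal components and cells were grouped by Louvain clustering (scanpy 1.11.5, igraph 0.11.9) over 15 neighbours with seed 1. Resolution 0.2 was taken because no lower one tried gave 8 clusters. A cluster was named from at least 3 markers detected in 10% of its cells at 2 times the level of other cells. No doublets were removed. CPM are UMIs summed over cells per 1e+06 UMIs, with exact Poisson intervals; shares have Clopper-Pearson intervals; ratios have the exact interval of the split of UMIs. The level is 95%, and PCR is allowed for only by the UMIs. A floor of 3 UMIs over a group served for a group at 0. With 1 library per genotype no test was run. Genes were named as members, as members of the lists, as the 10 most similar in pattern, or as the 10 highest in carcinoma-like cells; Lef1, Nkg7, Ptprc, S100a8, C1qa and Col1a1, and the leading genes of the 23 Smad3-KO barcodes, were chosen after values were seen. Some genes of the lists are not reported here. Of the genes of a list, only those with at least 20 UMIs were read, and higher or lower means that the ratio's interval lies beyond 1. The depth split of joint detection, the class of cells under another seed and the share of all genes higher or lower were added after seeing the data. The functions were tested on simulated data. Other tools were Python, numpy, scipy and pandas.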

Additional observations from a re-analysis of the deposited data

Results flagged for a closer look

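Smad3-WT barcodes that failed the quality filter entered no comparison, and they held UMIs of 8 members, above the floor of 3 UMIs used for a count of 0. Of these 214 barcodes, 209 failed for mitochondrial UMIs of 10% or more. The keratins had 48 UMIs of Krt8, at 120 CPM (88.4 to 159), and 6 of Krt18. Wfdc2 had 165 UMIs, 412 CPM (352 to 480), Hmga2 had 119, 297 CPM (246 to 356), Rhox5 had 72 and Cav1 had 71. Igfbp4 had 319 UMIs and Vim 418. Wfdc2 was at 386 CPM and Krt8 at 356 CPM in the kept carcinoma-like cells.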

How the results depend on the processing

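The name of the carcinoma-like class depended on the clustering. With an upper limit of 20000 UMIs, with under 20% mitochondrial UMIs or with 30 principal components, no cluster was named carcinoma-like, and no carcinoma-like value could be given. The 4 keratins, at 419 CPM in Smad3-WT carcinoma-like cells, came to 442 CPM at resolution 1.0, 439 CPM with another seed, 369 CPM as a mean over cells, 645 CPM over totals without mitochondrial and ribosomal protein genes and 396 CPM without shared barcodes. Their Smad3-KO to Smad3-WT ratio, 0.00578, came to 0.0125 under the upper limit and 0.0439 as a mean over cells. The share of keratin UMIs in carcinoma-like cells, 97.6%, came to 84.3% at resolution 1.0, to 88.4% with another seed, 88.4% as a mean over cells, 97.1% without shared barcodes and 99.0% without the deepest neutrophil-like and macrophage-like cells. The keratin quotient of neutrophil-like to carcinoma-like cells stayed within its interval under the 8 alternatives that gave a value, from 0.0243 to 0.0391. For the 10 members, 47 of 80 levels, 102 of 119 ratios and 58 of 80 quotients of neutrophil-like to carcinoma-like cells stayed within their intervals. No ratio or quotient reversed, and a level cannot reverse by this rule. The quotients against macrophage-like cells were recomputed as a choice made after seeing the data. With those of the 4 keratins together, 52 of 88 stayed within their intervals and 36 moved. With Spearman rho, 3 of the 10 genes of similar pattern were the same. No paired analysis was possible because each genotype has 1 library and no result comes from a test. Depth limits the Smad3-KO library, where a gene at 0 UMIs could be at up to 0.89 CPM.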

Other observations

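All 10 cell cycle genes read, among them Mki67, Top2a, Birc5 and Ccnb1, were higher in carcinoma-like than in other Smad3-WT cells, with ratios from 2.89 (Mki67, 2.36 to 3.57) to 8.82 (Ccnb1, 6.79 to 11.7), where 43.6% of 12433 genes were higher by the same rule. Within carcinoma-like cells the members did not all follow them, and Cav1 was lower in the cells with the highest level of these genes. Tm4sf1, a membrane protein of many carcinomas, was at 16.7 (12.7 to 22.4) and the laminin chain Lama5 at 21.7 (12.9 to 40.0) times the level of other cells, and the receptor gene Met at 3.56 (2.87 to 4.46).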
